A study of Mus musculus with 57 samples.

Results

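The transcripts of 6 ion channel and transporter genes linked to acinar fluid secretion, Slc12a2, Atp1b1, Kcnn4, Kcnma1, Ano1 and Slc4a4, were followed. They were counted in 57 RNA sequencing samples of embryonic mouse salivary tissue, and secretion itself was not measured. The genes were taken by name in each of the 5 deposited count tables, as 6 of 35275 genes in the tables of glands and of end buds, 6 of 54532 in the table of TORIN1 samples and 6 of 53608 in the table of Erbb3 knockout (KO) glands. Of the 5171 genes used in the culture table, 5 are members, and Atp1b1 was not analysed there. Every member present passed the filter on low counts, and the rule names the genes with no threshold on their values. The 6 names were chosen with earlier results of these data known.

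The stage series comprised whole salivary glands (titled SMG), freshly dissected and untreated, from wild-type embryos at embryonic day 13 (E13), E14, E15, E16, E17 and E18, with 4 samples a stage. End buds, the epithelial tips that become acini, were wild-type epithelium labelled E13 plus 4 h and either treated with neuregulin 1 (NRG1, which binds the receptor ERBB3) or untreated, with 3 NRG1 and 3 control samples titled E13 and 3 NRG1 and 2 control samples titled E14. The samples titled E14 carry that same stage label, apart from NRG1 sample C with E13 plus 72 h, so the title set the group. Other wild-type epithelium, labelled E13 plus 72 h, was given TORIN1, which blocks mTOR kinase, or the solvent DMSO, with 4 samples each and no NRG1 named in the labels. Glands at E16 were labelled Erbb3 KO or wild type (WT), with 4 samples each, and the labels give neither the alleles nor any Cre driver. Wild-type E13 epithelium was kept in NRG1 for 2, 3 or 4 days, with 2 samples a day, whose columns in the table begin with NRG1 for one and NRG2 for the other. The sources used here do not say whether that prefix is a replicate number or another ligand, and the sample labels name NRG1 for all 6. No label says that samples of a group are separate animals or cultures. The p-values therefore rest on differences among these samples, which could be technical.

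Slc12a2 (ENSMUSG00000024597) lies on the forward strand at chr18:57878678-57946821 of GRCm38, and encodes the basolateral sodium-potassium-chloride cotransporter that loads the acinar cell with chloride. Atp1b1 (ENSMUSG00000026576, reverse strand, chr1:164437109-164458355) encodes a beta subunit of the sodium-potassium ATPase, which maintains the sodium gradient that drives the cotransporter. Kcnn4 (ENSMUSG00000054342, forward strand, chr7:24370263-24386690) encodes an intermediate-conductance potassium channel opened by calcium. Kcnma1 (ENSMUSG00000063142, reverse strand, chr14:23289431-24014491) encodes the pore of the large-conductance potassium (BK) channel, opened by calcium and voltage. Ano1 (ENSMUSG00000031075, reverse strand, chr7:144588549-144751974) encodes the apical calcium-activated chloride channel. Slc4a4 (ENSMUSG00000060961, forward strand, chr5:88886818-89239653) encodes an electrogenic sodium-bicarbonate cotransporter. In GENCODE M21 the exons of Atp1b1 share 575 bases (18.7% of its exon length) with Nme7 on the opposite strand, and those of Kcnma1 share 1016 bases (5.98%) with the noncoding gene 4930519K11Rik, also on the opposite strand. The counting may or may not have used strand, which the sources used here do not say, so reads in those stretches are uncertain in origin.

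In an acinar cell, nerve signals raise calcium, which opens the apical chloride channel and the potassium channels. Chloride leaves through ANO1, potassium leaves through the potassium channels and keeps the membrane voltage favourable, sodium follows between the cells, and water follows through channels such as aquaporin 5. The ATPase and the cotransporter restore the gradients, and bicarbonate transport gives a second route for anion and acid balance. During gland development the branching epithelium is set in a dense mesenchyme, and its end buds turn into acini that begin to make saliva proteins before birth.

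Promoter windows from RefSeq on GRCm38.p6, covering 250 bases before and 50 bases from the start of the transcript, were matched for 5 of the 6 genes in 6 windows, and that of Slc12a2 is not shown. They were searched on both strands for an AP-1 site (TGANTCA), an ETS core (CCGGAA), an E-box of MYC type (CACGTG), an E-box of the type bound by MIST1, a transcription factor of secretory cells (CAGCTG), and a SOX core (ACAAAG). None of these motifs overlapped another in the windows printed. The 3 windows with a match are shown because they belong to the gene that rose most in glands and end buds, to the gene called at every stage step, and to the apical chloride channel gene, with the match in capitals.
Kcnn4, chr7:24370013-24370312, forward strand: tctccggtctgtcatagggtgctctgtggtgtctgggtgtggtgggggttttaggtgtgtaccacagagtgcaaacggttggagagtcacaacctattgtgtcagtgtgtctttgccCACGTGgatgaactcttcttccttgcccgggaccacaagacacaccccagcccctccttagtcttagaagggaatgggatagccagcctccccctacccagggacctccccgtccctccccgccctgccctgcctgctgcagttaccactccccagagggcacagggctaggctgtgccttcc
Atp1b1, chr1:164458306-164458605, reverse strand: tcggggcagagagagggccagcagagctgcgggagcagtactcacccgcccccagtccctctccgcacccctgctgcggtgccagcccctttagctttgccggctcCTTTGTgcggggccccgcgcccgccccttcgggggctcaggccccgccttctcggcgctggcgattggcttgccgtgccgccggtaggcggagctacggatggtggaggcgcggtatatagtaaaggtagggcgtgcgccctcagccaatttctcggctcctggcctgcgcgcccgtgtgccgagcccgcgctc
Ano1, chr7:144738524-144738823, reverse strand: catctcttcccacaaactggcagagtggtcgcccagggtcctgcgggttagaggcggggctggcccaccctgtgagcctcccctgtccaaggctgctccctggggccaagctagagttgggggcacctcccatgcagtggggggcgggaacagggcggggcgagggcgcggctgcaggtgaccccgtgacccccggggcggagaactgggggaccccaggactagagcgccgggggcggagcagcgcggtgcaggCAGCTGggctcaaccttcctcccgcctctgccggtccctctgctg
The Kcnn4 window holds 1 CACGTG that begins 133 bases upstream of the start, the Atp1b1 window 1 SOX core on the other strand, printed as CTTTGT, that begins 144 bases upstream, and the Ano1 window 1 CAGCTG that begins 6 bases downstream. The RefSeq start of Ano1 lies inside the gene as GENCODE draws it. The Kcnma1 window and both Slc4a4 windows held none of the 5 motifs. Of 32851 promoter windows of the same length, 7.15% held CACGTG, 18.7% ACAAAG, 16.3% CAGCTG, 14.9% CCGGAA and 7.81% TGANTCA. The Kcnn4 window has 59.7% GC and 6 CpG sites, near the median window at 52.7% and 7, against 71.0% and 31 for Atp1b1 and 71.7% and 18 for Ano1. A match is a description of letters and not a binding site.

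Total counts per sample ran from 13033868 to 25935489 in glands, 16027377 to 26306020 in end buds, 16318997 to 19671988 in TORIN1 and DMSO epithelium and 8913271 to 11890488 in KO and WT glands. Levels are CPM, the counts scaled to a fixed total, computed over library sizes scaled by TMM, and each table was normalized on its own. Among the glands E18 D stood apart, with a chi-square per gene of 161 to 219 when paired with E18 A, B or C, where pairs among those 3 gave 9.92 to 17.7. In E18 D the sum of 12 epithelial markers was 9092 CPM and that of 10 mesenchymal markers 4633 CPM, against 4930 to 5047 CPM and 8861 to 10926 CPM in E18 A to C. The members' changes from E13 to E18 are given with and without that sample, and those of related genes and marker lists with it unless stated.

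Over the 6 stages, 5 of the genes ended higher at E18 than at E13 and 1, Slc4a4, ended lower. All 6 were called, where 72.7% of the 16521 genes tested were called, so the count says little about these genes by itself. Their median log2 fold change was 2.71, against 0.01 over all genes tested. Without E18 D all 6 were still called, with 1.35 for Slc12a2, 3.27 for Atp1b1 and 3.08 for Kcnma1. A call is an adjusted p under 0.05 in edgeR's quasi-likelihood test with Benjamini-Hochberg adjustment over all genes of the table. Where sample ranges are said to overlap or to lie apart, the share of all genes that do so is not given here. In whole glands a larger share of a cell type and more RNA per cell cannot be told apart.

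Slc12a2, the chloride-loading cotransporter gene, had 549, 600, 476 and 682 CPM at E18, against 226, 202, 205 and 216 CPM at E13. Its log2 fold change was 1.44 ± 0.13 (SE, adjusted p = 4.61e-10), a fold of 2.72. The path between these ends was not steady. It had 402, 316, 347 and 367 CPM at E14, 95.7, 112, 136 and 151 CPM at E15, and 312, 359, 362 and 366 CPM at E16. The E15 samples lie below every sample of the other 5 stages, E13 included. At E17 it had 360, 383, 389 and 297 CPM, a range that overlaps with E16.

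The E15 dip of Slc12a2 was called in both directions. It fell by 1.53 in log2 at E15 relative to E14 (SE 0.13, adjusted p = 3.92e-09), and was higher at E16 than at E15 by 1.499 ± 0.13 (adjusted p = 3.98e-09). In the E15 to E14 comparison the log2 fold changes of all genes followed exon length, with a Pearson correlation of -0.447 across 14333 genes, a median of 0.48 in the fifth of genes with the shortest exons and of -0.49 in the fifth with the longest. At E16 over E15 that correlation was -0.055. Slc12a2 has 10920 bases of exon, and the part of exon length in its changes was not tested. With an offset that follows GC content and exon length, an alternative chosen after seeing the data, its fall was 0.93 on the log2 scale and stayed called, and its E18 to E13 change was 2.08.

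Atp1b1, the pump subunit gene, had 680, 675, 657 and 572 CPM at E18, against 71.0, 70.4, 66.8 and 69.1 CPM at E13. It rose 9.32-fold, a log2 fold change of 3.22 ± 0.07 (adjusted p = 1.81e-20). The samples within a stage lay close together, at 96.7, 88.3, 98.0 and 99.4 CPM at E14, 179, 195, 174 and 175 CPM at E15, 375, 344, 362 and 352 CPM at E16 and 519, 510, 509 and 494 CPM at E17. No stage overlapped with the one before it. It was the only one of the 6 genes called in each of the 5 steps between neighbouring stages, with log2 fold changes of 0.46, 0.92, 0.99, 0.50 and 0.35 in stage order. The last of these was not called with library totals in place of TMM (0.15, adjusted p = 0.259), a scaling that shifted the median of all genes to -0.18 there and to -0.33 for E18 over E13, or in the fit of E17 and E18 alone (adjusted p = 0.137).

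Among the potassium channel genes, Kcnn4 changed more than any other member. It had 515, 540, 590 and 1020 CPM at E18, against 26.4, 21.9, 21.5 and 19.3 CPM at E13. That is a 29.9-fold difference, with a log2 fold change of 4.90 ± 0.19 (adjusted p = 1.41e-16), and the ranges are far apart. The intermediate stages stood at 32.8, 32.4, 36.9 and 38.7 CPM (E14), 155, 159, 130 and 119 CPM (E15), 336, 314, 293 and 340 CPM (E16) and 405, 464, 534 and 448 CPM (E17). The steepest step was E15 over E14, at 2.00 ± 0.17 on the log2 scale (adjusted p = 4.35e-09). Without E18 D the E18 to E13 change was 4.62.

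Kcnma1, the BK channel pore gene, was low throughout. It had 28.9, 36.8, 33.2 and 15.9 CPM at E18, against 4.49, 4.63, 3.602 and 2.98 CPM at E13, where they rest on 58 to 82 reads a sample. Its log2 fold change was 2.88 ± 0.21 (adjusted p = 1.22e-11), and no E18 sample reached down to the E13 range. It stood at 5.56 to 7.26 CPM at E14 and 5.29 to 6.23 CPM at E15, which overlap, then at 11.2 to 16.95 CPM at E16 and 13.9 to 18.9 CPM at E17. The sample E18 D, which was highest for Kcnn4, was lowest of its stage for Kcnma1. BK channels are also known from smooth muscle, and 8 markers of myoepithelium and smooth muscle summed to 892 to 1212 CPM at E18 and 144 to 218 CPM at E13, whose part in the Kcnma1 difference was not tested.

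Ano1, the apical chloride channel gene, had 194, 206, 212 and 78.9 CPM at E18, against 30.9, 23.6, 33.6 and 30.8 CPM at E13. It rose 5.81-fold, by 2.54 ± 0.21 on the log2 scale (adjusted p = 1.71e-10). The ranges were 55.8 to 63.3 CPM at E14, 70.3 to 91.8 CPM at E15, 150 to 185 CPM at E16 and 162 to 215 CPM at E17. From E16 on the ranges overlap, and neither of the later steps was called. E18 D alone lay below the E16 range, and without it the E18 to E13 change was 2.78 and E18 averaged 204 ± 9.30 CPM (SD, n = 3).

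Slc4a4, the bicarbonate cotransporter gene, ran the other way. It had 14.8, 13.998, 10.4 and 5.96 CPM at E18, against 41.6, 38.2, 40.4 and 40.6 CPM at E13. It fell by 1.82 in log2 (SE 0.20, adjusted p = 1.84e-08), and by 1.62 without E18 D. Most of the fall came in 1 step, with 12.2, 7.74, 12.8 and 15.3 CPM at E15, against 38.2, 31.9, 29.6 and 34.4 CPM at E14. It fell by 1.48 there (SE 0.20, adjusted p = 2.13e-06), and by 0.92 with the GC and exon length offset. Slc4a4 has 10815 bases of exon, and the part of exon length in its fall was not tested. From E15 to E18 its ranges overlap, and no step was called.

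**Figure D1:**
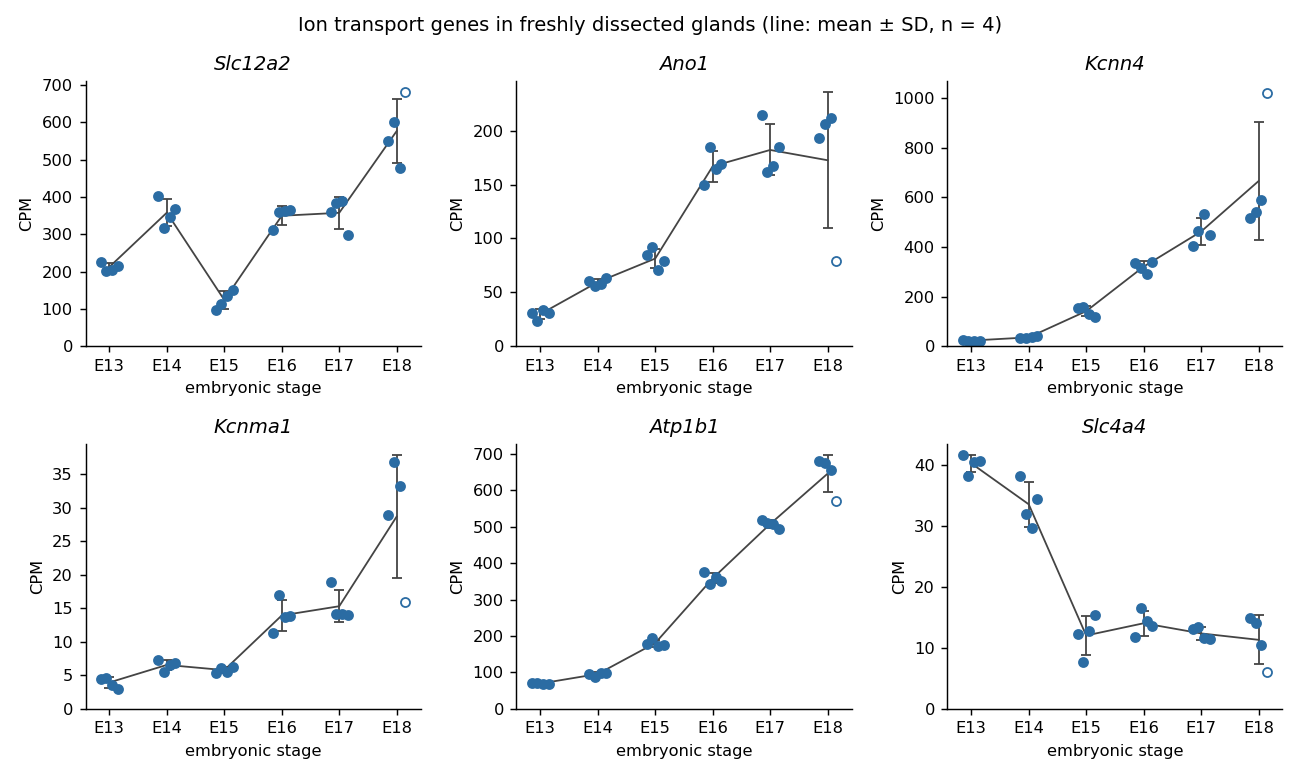
Levels of the 6 genes in each of 24 whole glands, in CPM on a linear axis from 0, by stage from E13 to E18. Each point is 1 sample, the line and bars are the mean ± SD of 4, and the open circle is E18 D. Kcnn4 reaches 515 to 1020 CPM at E18 against 19.3 to 26.4 CPM at E13, Slc12a2 dips to 95.7 to 151 CPM at E15, and Slc4a4 ends lower than it began.

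At E14 over E13, 5 of 6 rose, where 19.5% of all genes were called, with log2 fold changes from 0.46 (Atp1b1) to 1.00 (Ano1), and Slc4a4 changed by -0.27 (adjusted p = 0.368). The Kcnma1 call at that step ended without E13 D (0.63, adjusted p = 0.0538). At E15 over E14, where 49.7% were called, Kcnn4 and Atp1b1 rose and Slc12a2 and Slc4a4 fell, while Ano1 changed by 0.45 (adjusted p = 0.0568) and Kcnma1 by -0.18 (adjusted p = 0.466). With the GC and exon length offset the Kcnma1 value turned to 0.53 (adjusted p = 0.00456) and Ano1 passed at 0.50 (adjusted p = 0.0123). At E16 over E15, where 23.5% were called, all members but Slc4a4 rose, by 0.99 (Atp1b1) to 1.499 (Slc12a2).

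The later steps were smaller. At E17 over E16, where 5.5% of genes were called, Atp1b1 alone was called, and Kcnn4 missed the threshold at 0.53 ± 0.16 (adjusted p = 0.0532). At E18 over E17, where 13% were called, Slc12a2 rose by 0.69, Kcnma1 by 0.91, Kcnn4 by 0.53 and Atp1b1 by 0.35. The Kcnn4 call ended without E18 D, at 0.25 (adjusted p = 0.103), and also without E17 A, B or D. Over E17 and E18 alone, only Slc12a2 was called.

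Levels were also set against the sum of 12 general epithelial markers, all of which were higher at E18 and which summed to 4930 to 9092 CPM there, against 995 to 1120 CPM at E13. Per 1000 CPM of these markers, Kcnn4 stood at 111 ± 6.90 CPM at E18 and 21.0 ± 2.27 CPM at E13 (SD, n = 4 each), and Atp1b1 at 117 ± 36.0 CPM at E18 and 65.7 ± 1.89 CPM at E13. On the same scale Ano1 had 32.9 ± 16.2 CPM at E18 and 28.2 ± 4.60 CPM at E13, Kcnma1 had 5.39 ± 2.51 CPM at E18 and 3.71 ± 0.698 CPM at E13, and Slc12a2 had 100 ± 19.2 CPM at E18 and 201 ± 5.67 CPM at E13. Slc4a4 had 2.13 ± 1.05 CPM at E18 and 38.1 ± 1.81 CPM at E13. On this scale Kcnn4 was higher and Slc12a2 and Slc4a4 lower at E18 than at E13 in every sample, with or without E18 D. The E18 and E13 ranges of Atp1b1, Ano1 and Kcnma1 overlapped through E18 D alone, which lay below every E13 sample for each of these genes. Atp1b1 had 62.9 CPM in E18 D and 63.4 to 67.3 CPM at E13. In the same order Ano1 had 8.68 and 22.6 to 33.8 CPM, and Kcnma1 1.75 and 2.79 to 4.43 CPM. Without E18 D, Atp1b1 stood at 135 ± 2.05 CPM, Ano1 at 41.0 ± 1.96 CPM and Kcnma1 at 6.61 ± 0.742 CPM at E18 (SD, n = 3), each above every E13 sample. This ratio is a description with no test, since some members may also be transcribed outside the epithelium and the markers may themselves change per cell. In untreated end buds titled E13, from another table, it was 0.231 ± 0.0304 CPM for Kcnn4, 30.4 ± 4.97 for Slc12a2 and 1.99 ± 0.416 for Slc4a4. Ano1 had 10.9 ± 1.04, Kcnma1 1.28 ± 0.144 and Atp1b1 62.4 ± 5.87 there (SD, n = 3). Why these differ from E13 glands was not tested, and the ratios in glands are not read as levels per epithelial cell.

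On that scale the odd sample behaved differently from gene to gene. Kcnn4 had 112 CPM per 1000 epithelial CPM in E18 D, inside the 104 to 120 of E18 A to C. Ano1 had 8.68 in E18 D and 39.0 to 43.0 in E18 A to C, and Atp1b1 62.9 in E18 D and 133 to 137 in E18 A to C. The high Kcnn4 level of E18 D thus went with a high epithelial sum, while its Ano1 level was low on both scales.

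**Figure D2:**
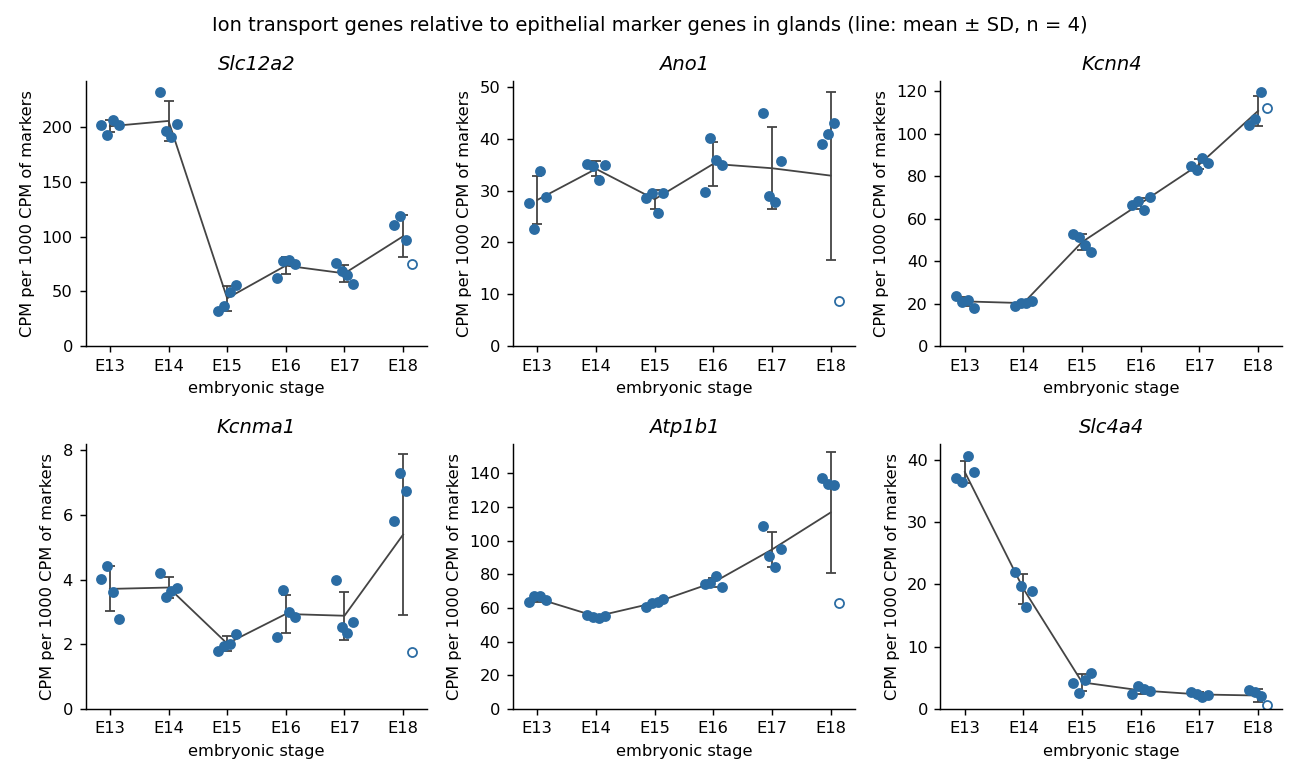
The same 24 glands with each level divided by the sum of 12 epithelial markers, in CPM per 1000 CPM of markers on a linear axis from 0, by stage. Points are samples, the line and bars are the mean ± SD of 4, and the open circle is E18 D. Kcnn4 still differs widely between E18 (111 ± 6.90) and E13 (21.0 ± 2.27). Ano1 at E18 lies above every E13 sample except in E18 D, which at 8.68 lies below every E13 sample.

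Per kilobase of exon, which allows levels of different genes to be set side by side, the order of the 6 genes changed over the stages. At E18 it was Atp1b1 at 210 ± 16.4 CPM per kb, Kcnn4 at 130 ± 46.5, Slc12a2 at 52.8 ± 7.91, Ano1 at 27.7 ± 10.1, Kcnma1 at 1.69 ± 0.537 and Slc4a4 at 1.04 ± 0.373 (SD, n = 4). At E13 it was Atp1b1 at 22.5 ± 0.595 CPM per kb, Slc12a2 at 19.4 ± 0.988, Ano1 at 4.76 ± 0.687, Kcnn4 at 4.35 ± 0.581, Slc4a4 at 3.72 ± 0.132 and Kcnma1 at 0.231 ± 0.0459. Kcnn4 thus moved up to the second place, which it held at each stage from E15 on, and Slc4a4 moved to the last. Neighbours whose SDs overlapped were Ano1 and Kcnn4, and Kcnn4 and Slc4a4, at E13, Slc12a2 and Atp1b1 at E14, Ano1 and Slc12a2 at E15 and E17, and Kcnma1 and Slc4a4 at E18. Without E18 D that last overlap ended, at 1.94 ± 0.233 CPM per kb for Kcnma1 and 1.21 ± 0.215 for Slc4a4 (SD, n = 3), and Kcnn4 stood at 107 ± 7.43.

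Across the 24 glands, on log2(CPM + 1), Kcnn4 and Atp1b1 followed each other most closely of the 15 pairs of members, with a Pearson r of 0.984. Slc12a2 had an r of 0.452 with Kcnn4 and 0.538 with Atp1b1, and Slc4a4 had -0.904 with Kcnn4. These points share stage, depth and cell mix, and the values are descriptions. Of 10298 genes with a mean of at least 10 CPM, those most like Kcnn4 were 9130230L23Rik (0.996), Stap2 and Cldn10, and those most like Atp1b1 were 5330417C22Rik (0.995), Acss1 and Lpo. Nearest to Ano1 were Spns2 (0.982), Shroom3 and Rassf4, and nearest to Kcnma1 were Oxr1 (0.984), Prkcd and Ptpn21. Slc4a4 was most like Epm2aip1 (0.980), Bmt2 and Lysmd3, and Slc12a2 most like Lars (0.925), Hook1 and Cpd.

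The wider ion transport families were counted over 5 lists, none of which holds a member. Of all genes tested, 36.5% were higher and 36.2% lower at E18 than at E13, and of the 60 tested in the lists 31 were higher and 17 lower. At E18 over E13, 9 of 11 tested genes of the ATPase subunits and their FXYD regulators rose and 1 fell, and so did 9 and 1 of 13 potassium channels and BK accessory subunits. Counts were 5 higher and 6 lower of 13 for cation-chloride cotransporters and their kinases, 4 and 5 of 12 for bicarbonate transport, sodium-proton exchange and carbonic anhydrases, and 4 and 4 of 11 for anoctamins and other chloride channels. Median log2 fold changes of the lists were 1.06, 1.501, -0.23, -0.01 and 0.14 in that order, against 0.01 over all genes.

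Named members of these lists show what stood beside the 6 genes. Fxyd2, a small regulator of the pump, rose by 6.62 ± 0.34 on the log2 scale. Lrrc26, which encodes a gamma subunit that lets BK channels open at resting voltage, had 339 ± 121 CPM at E18 and 0.867 ± 0.374 CPM at E13 (SD, n = 4 each, and 279 ± 6.28 CPM at E18 without E18 D), a log2 fold change of 8.61 ± 0.28 (adjusted p = 1.89e-17), against 2.88 for the pore gene Kcnma1. Kcne1, a potassium channel accessory subunit gene, rose by 9.12 ± 0.54. It had 9.51 to 15.1 CPM in E18 A to C, so it was near the floor at E13 and the size of its change rests on few reads there. Stk39, a kinase that activates the cotransporter made from Slc12a2, rose by 2.39 ± 0.09, and Wnk3, a kinase upstream of it, fell by 4.21 (SE 0.29).

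Other genes of anion and acid transport went in both directions. Slc26a6, an anion exchanger gene, rose by 2.91 ± 0.12 and Car4, a membrane-bound carbonic anhydrase gene, by 2.76 ± 0.44. Slc4a8 fell by 1.63 (SE 0.14) and Slc4a5 by 1.88 (SE 0.47), both of them sodium-bicarbonate transporter genes like Slc4a4. Slc4a5 was near the floor, at 0.174 to 0.617 CPM in E18 A to C, so its value rests on few reads. Aqp5, the acinar water channel gene, rose by 9.01 ± 0.29.

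Slc12a2 and Kcnn4 rose with NRG1 in end buds of both titles, while Atp1b1 and Slc4a4 were not called at either. In end buds titled E13, 3 of 6 members rose, where 42.4% of 16180 genes were called. In those titled E14, 2 rose and 1 fell, where 36.2% were called. The comparison asks which transcripts answer the growth factor in end buds labelled as epithelium. Those titled E14 also carried many mesenchymal transcripts, as given below, so a response there cannot be assigned to the epithelium alone.

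Slc12a2 had 956, 919 and 948 CPM with NRG1 and 127, 110 and 137 CPM in control end buds titled E13, a 7.53-fold difference (log2 2.91 ± 0.11, adjusted p = 2.36e-09). In those titled E14 it had 664, 758 and 724 CPM with NRG1 and 231 and 168 CPM in controls, a log2 fold change of 1.84 ± 0.13 (adjusted p = 6.36e-07). The NRG1 and control ranges are far apart at both titles. Of the 6 members, 2 had responses that differed between the titles, where 2.27% of genes did. That of Slc12a2 was smaller at E14, with a difference of -1.07 ± 0.16 on the log2 scale (adjusted p = 0.00500).

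Kcnn4 had 17.6, 14.5 and 16.5 CPM with NRG1 and 1.18, 0.827 and 0.871 CPM in control end buds titled E13, the control values resting on 14 to 29 reads a sample. The fold was 16.6 (log2 4.05 ± 0.30, adjusted p = 1.46e-06). At E14 it had 57.9, 37.4 and 35.0 CPM with NRG1 and 13.3 and 7.63 CPM in controls, at 2.05 ± 0.27 (adjusted p = 0.000157). Again no control sample reached the NRG1 range. The response was smaller at E14, with a difference of -1.998 ± 0.41 in log2 (adjusted p = 0.0331), a call that ended without the filter on low counts (adjusted p = 0.0603) and without any 1 of E13 control A, B or C, E13 NRG1 A, B or C, or E14 NRG1 B (adjusted p of 0.0613 to 0.0947).

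The other members gave small differences. Ano1 had 66.7, 70.6 and 68.5 CPM with NRG1 and 45.2, 43.3 and 45.9 CPM in controls at E13, which do not overlap, at 0.61 ± 0.18 (adjusted p = 0.0188). That call ended without any 1 of the 3 controls or NRG1 B (adjusted p of 0.0516 to 0.0583). At E14 the Ano1 controls, 112 and 62.5 CPM, lay on both sides of the NRG1 samples at 94.2, 77.4 and 79.7 CPM. Its E14 value was -0.06 (adjusted p = 0.853), turned to 0.43 (adjusted p = 0.00387) without control B, and came to -0.41 (adjusted p = 0.00481) without control C. The difference between its responses at E14 and E13 was -0.67 ± 0.26 (adjusted p = 0.241, and 0.0478 with DESeq2).

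Kcnma1 had 4.40, 4.43 and 4.87 CPM with NRG1 and 5.45, 5.91 and 4.47 CPM in controls at E13, which overlap, and was not called (adjusted p = 0.404). At E14 it had 8.81, 5.83 and 8.02 CPM with NRG1 and 11.4 and 10.3 CPM in controls, and fell by 0.52 (SE 0.19, adjusted p = 0.0473). That call ended without the low-count filter (adjusted p = 0.0538), in the fit of only these 2 groups (adjusted p = 0.0814), with the replicate block (adjusted p = 0.0570), with the GC and exon length offset (adjusted p = 0.160), and without control B, control C, NRG1 B or NRG1 C (adjusted p of 0.0528 to 0.164). Atp1b1 had 264, 247 and 218 CPM with NRG1 and 251, 265 and 255 CPM in controls at E13, and 153, 166 and 177 CPM with NRG1 and 158 and 160 CPM in controls at E14. Slc4a4 had 7.65 to 9.48 CPM with NRG1 and 6.79 to 9.04 CPM in controls at E13, and 12.5 to 17.04 CPM with NRG1 and 12.4 to 20.3 CPM in controls at E14. Both overlap at both titles.

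**Figure D3:**
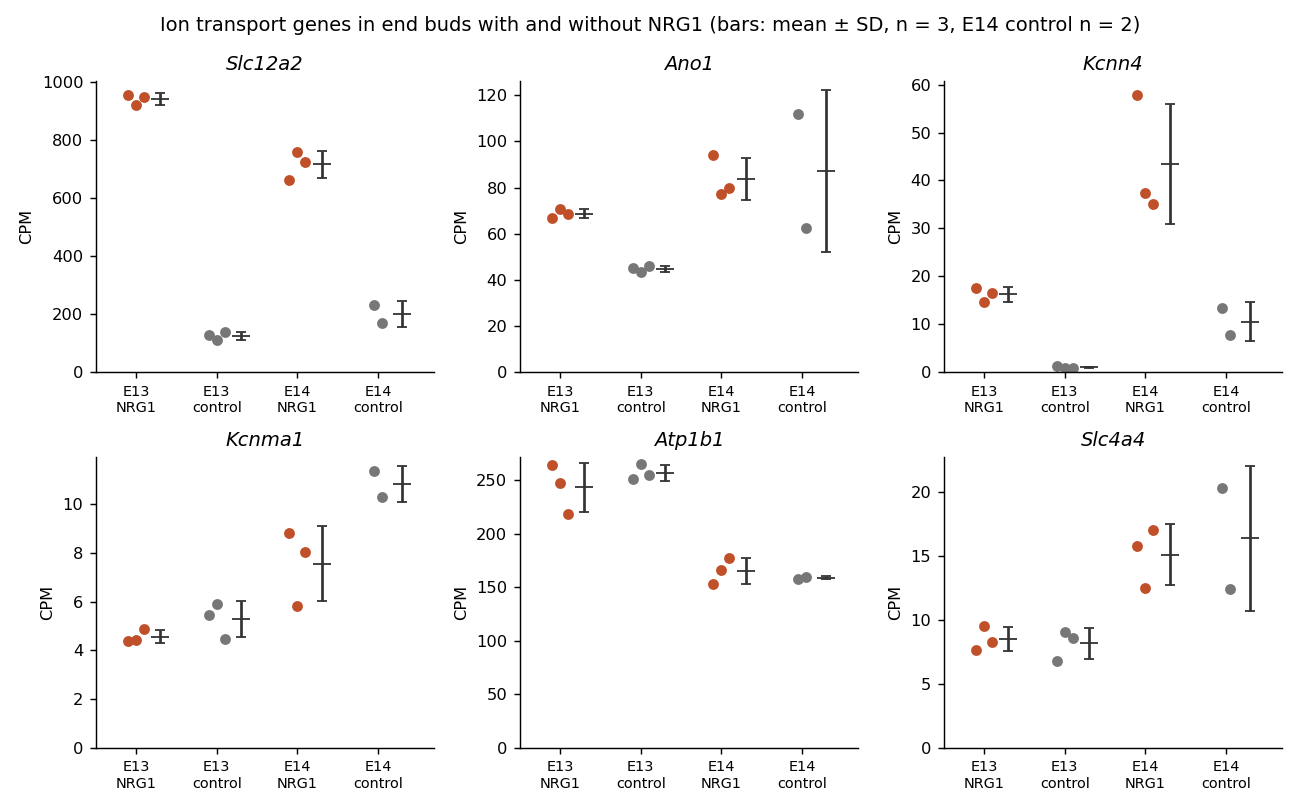
CPM of the 6 genes in end buds with NRG1 and in controls, for the samples titled E13 and E14, on a linear axis from 0. Points are samples and bars are the mean ± SD (n = 3, or 2 for E14 controls). Slc12a2 and Kcnn4 separate fully at both titles, and Atp1b1 and Slc4a4 overlap at both.

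Untreated end buds of the 2 titles also differed. At E14 over E13, all 6 members were called, where 23.6% of genes were. Kcnn4 was higher by 3.42 ± 0.34 (adjusted p = 5.38e-05), Kcnma1 by 1.04, Slc4a4 by 1.01, Ano1 by 0.96 and Slc12a2 by 0.67, while Atp1b1 changed by -0.69 on the log2 scale. The Slc4a4 call ended without E14 control B (0.61, adjusted p = 0.0564), and the Ano1 call in the fit of these groups alone (adjusted p = 0.0521). The E14 controls also carried more transcripts of other cells: 10 mesenchymal markers summed to 1609 to 5261 CPM in E14 controls and 210 to 614 CPM in E13 controls, and 8 endothelial markers to 200 to 324 CPM in E14 controls and 4.49 to 18.8 CPM in E13 controls. Their part in these differences was not tested, and this comparison shares its control samples with the NRG1 comparisons. The 12 epithelial markers summed to 4167 to 4606 CPM with NRG1 and 4539 to 4894 CPM in controls at E14, and to 4003 to 4402 CPM with NRG1 and 3808 to 4496 CPM in controls at E13, so that all groups carried them at similar levels. Within a title, mesenchymal sums were 380 to 490 CPM with NRG1 at E13 and 3845 to 4772 CPM with NRG1 at E14, each inside its control range.

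Per kilobase, NRG1 put Slc12a2 first. In NRG1 end buds titled E13 it had 86.2 ± 1.79 CPM per kb and Atp1b1 78.9 ± 7.45, against 11.4 ± 1.27 for Slc12a2 and 83.3 ± 2.37 for Atp1b1 in controls (SD, n = 3 each). The NRG1 values of the pair overlap within 1 SD. In controls Kcnn4 was last of the 6, at 0.188 ± 0.0376 CPM per kb, and with NRG1 it stood after Ano1 and above Slc4a4 and Kcnma1, at 3.17 ± 0.307.

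With NRG1 at E13, 12 of 59 tested genes of the 5 lists were called higher and 15 lower, where 23.1% of all genes were called higher and 19.3% lower. Counts were 2 higher and 3 lower of 11 for ATPase and FXYD genes, 4 and 6 of 13 for cation-chloride cotransporters and kinases, 3 and 1 of 12 for bicarbonate transport, 1 and 5 of 12 for chloride channels, and 2 and 0 of 11 for potassium channels, with list medians from -0.16 to 0.07. Within the cotransporter family, Slc12a7, a potassium-chloride cotransporter gene, rose by 0.68 ± 0.08, while the kinase gene Wnk4 fell by 1.17 (SE 0.15). Of the potassium channel list, the BK beta subunit gene Kcnmb1 rose by 1.32 ± 0.42 and Kcnk5, a background potassium channel gene, by 0.94 ± 0.13. Slc26a9, an anion transporter gene, rose by 1.62 ± 0.19, and Car12, a carbonic anhydrase gene, by 1.52 ± 0.24. Aqp5 rose by 2.24 ± 0.35. At E14 the counts were 1 and 3, 3 and 6, 2 and 2, 1 and 4, and 0 and 0 in the same order, where 20.2% of all genes were called higher and 16% lower. The duct marker sum was lower with NRG1, at 793 to 944 CPM with NRG1 and 1756 to 2893 CPM in controls at E13, and its part in these results was not tested.

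In glands labelled Erbb3 KO, 4 of the 6 members were lower than in WT glands, where 7.03% of 14991 genes were called. They were Slc12a2, Atp1b1, Kcnma1 and Ano1, by log2 values of -0.96 to -1.60, while Kcnn4 and Slc4a4 were not called. The median of the 6 was -0.98, against -0.04 over all genes tested. The targeted gene itself had 35.1, 32.0, 73.6 and 68.6 CPM in glands labelled KO and 89.7, 69.6, 124 and 118 CPM in WT glands, ranges that overlap, at -0.94 ± 0.29 (adjusted p = 0.0619). Counts over the whole gene do not show which exons are deleted, so the labels were not checked by it beyond these values, and the libraries are named here by their labels. These WT glands also differed from the E16 glands of the stage series, which were normalized apart. Smgc, an acinar product gene, had 241 to 873 CPM in WT glands and 10543 to 11179 CPM in the series at E16. Slc12a2 averaged 101 and 350 CPM, Atp1b1 175 and 358 CPM, and Kcnma1 14.2 and 13.9 CPM in the same order. What this reflects was not tested.

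Slc12a2 had 38.2, 40.2, 70.4 and 53.4 CPM in glands labelled KO and 117, 92.6, 108 and 86.9 CPM in WT glands. It fell by 1.00 in log2 (SE 0.19, adjusted p = 0.0291), and the highest KO sample lay below the lowest WT sample. Atp1b1 had 77.7, 69.5, 103 and 111 CPM in glands labelled KO and 245, 137, 164 and 155 CPM in WT glands, without overlap. It fell by 0.96 (SE 0.21, adjusted p = 0.0345).

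Kcnma1 had 3.97, 4.45, 5.11 and 5.19 CPM in glands labelled KO, from 36 to 58 reads a sample, and 13.8, 8.97, 19.2 and 14.9 CPM in WT glands. Its fall of 1.60 (SE 0.24, adjusted p = 0.0172) was larger than that of any other member, and the KO samples lay close together. Ano1 had 29.2, 30.9, 66.7 and 55.2 CPM in glands labelled KO and 104, 75.1, 118 and 121 CPM in WT glands, also without overlap. It fell by 1.20 (SE 0.26, adjusted p = 0.0354).

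The other potassium channel gene, Kcnn4, and Slc4a4 were not called. Kcnn4 had 216, 170, 245 and 215 CPM in glands labelled KO and 304, 312, 204 and 251 CPM in WT glands, which overlap, at -0.34 ± 0.17 (adjusted p = 0.189). Slc4a4 had 7.28, 8.90, 7.15 and 6.97 CPM in glands labelled KO and 6.997, 6.82, 9.89 and 12.8 CPM in WT glands, at -0.27 ± 0.23 (adjusted p = 0.435).

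**Figure D4:**
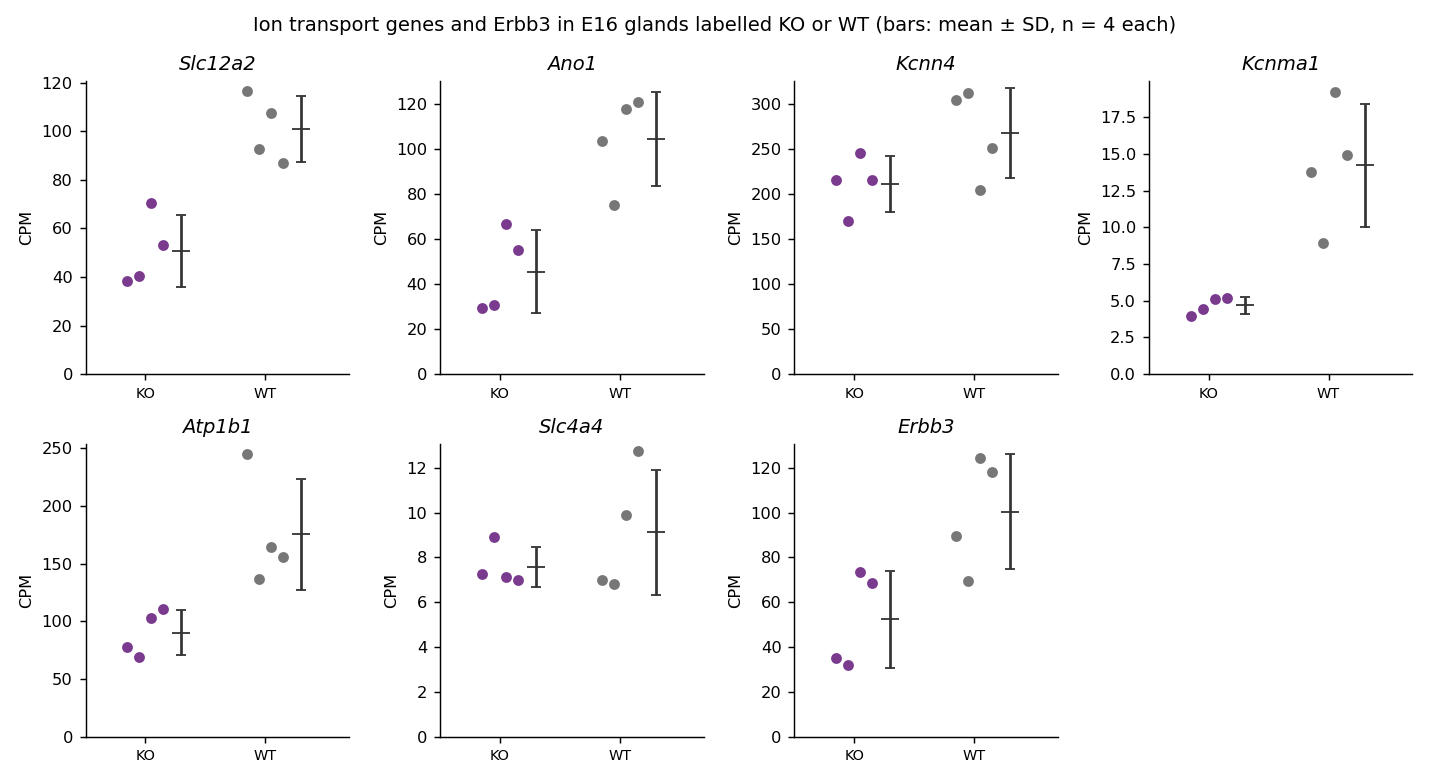
CPM of the 6 genes and Erbb3 in E16 glands labelled Erbb3 KO and in WT glands, on a linear axis from 0, with 4 samples each as points and bars for the mean ± SD. The groups do not overlap for Slc12a2, Atp1b1, Kcnma1 and Ano1, and overlap for Kcnn4, Slc4a4 and Erbb3. The share of all genes whose groups do not overlap is not given here, and 31.9% of genes tested had an unadjusted p under 0.05 in edgeR.

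The 4 KO calls rest on thin margins. Leaving out KO 1 or KO 2 left no member called (adjusted p of 0.0737 to 0.152 for the 4 genes), leaving out KO 4 or WT 3 left only Kcnma1, and leaving out WT 4 left Kcnma1 and Slc12a2, although all 4 genes kept their direction each time. Without KO 3 the Atp1b1 call ended (adjusted p = 0.0506), as did the Ano1 call without WT 1 (adjusted p = 0.0531). Calls over all genes changed as much, from 1054 of 14991 tested with all samples. They numbered 5 of 15361 without KO 1, 3 of 15344 without KO 2, 333 of 15407 without KO 3 and 136 of 15280 without KO 4. Leaving out a WT sample gave 509 of 15336 (WT 1), 3723 of 15295 (WT 2), 24 of 15202 (WT 3) and 81 of 15260 (WT 4). Log2 fold changes of all genes followed exon length and GC content in this comparison, with Pearson correlations of -0.433 and 0.394 across 14771 genes. With the offset for both, Kcnma1 (-1.09, adjusted p = 0.0227) and Atp1b1 (-0.93, adjusted p = 0.0479) were called, and Slc12a2 (-0.59, adjusted p = 0.0649) and Ano1 (-1.03, adjusted p = 0.0669) were not.

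Markers of several cell types moved beside these genes. The 12 epithelial markers summed to 2444 to 3555 CPM in glands labelled KO and 3099 to 4660 CPM in WT glands, and 9 acinar product genes to 201 to 381 CPM in glands labelled KO and 777 to 2348 CPM in WT glands. Schwann cell markers, a list that includes Erbb3, summed to 698 to 809 CPM in glands labelled KO and 424 to 690 CPM in WT glands. Per 1000 CPM of the epithelial markers, Kcnn4 stood at 68.9 ± 0.517 CPM in glands labelled KO and 70.6 ± 5.94 CPM in WT glands. On that scale Slc12a2 had 16.3 ± 3.14 CPM in glands labelled KO and 27.1 ± 5.26 CPM in WT glands, Atp1b1 29.4 ± 4.31 CPM in glands labelled KO and 46.4 ± 9.03 CPM in WT glands, Ano1 14.5 ± 4.37 CPM in glands labelled KO and 28.7 ± 9.81 CPM in WT glands, and Kcnma1 1.54 ± 0.242 CPM in glands labelled KO and 3.96 ± 1.77 CPM in WT glands (SD, n = 4 each). There the KO and WT ranges lay apart for Slc12a2 and Kcnma1. They overlapped for Atp1b1, at 24.8 to 35.2 CPM in glands labelled KO and 33.6 to 53.0 CPM in WT glands. Those of Ano1 also overlapped, at 9.32 to 18.8 CPM in glands labelled KO and 18.5 to 38.1 CPM in WT glands. Per kilobase, Kcnn4 stood first in glands labelled KO at 41.4 ± 6.08 CPM per kb, with Atp1b1 at 29.3 ± 6.44, while in WT glands Atp1b1 stood at 56.9 ± 15.5 and Kcnn4 at 52.3 ± 9.84, and the SDs of the pair overlap in both groups. The part of the cell mix in the KO differences was not tested further.

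Of 55 tested genes of the related families, 1 was called higher and 9 lower in glands labelled KO than in WT glands, where 2.83% of all genes were called higher and 4.2% lower. The counts were 1 higher and 0 lower of 11 for ATPase and FXYD genes, 0 and 3 of 13 for cotransporters and kinases, 0 and 1 of 10 for bicarbonate transport, 0 and 3 of 10 for chloride channels, and 0 and 2 of 11 for potassium channels. Lrrc26, the BK gamma subunit gene, fell by 1.39 (SE 0.32), beside the pore gene Kcnma1. Slc12a8, an orphan of the cotransporter family, fell by 2.10 (SE 0.37), Cftr, a chloride channel gene, by 1.41 (SE 0.35), Ano7, a relative of Ano1, by 1.93 (SE 0.48), and the anion exchanger gene Slc26a6 by 0.88 (SE 0.21). Fxyd5 was the gene called higher, by 0.94 ± 0.24. Aqp5 had 120, 113, 195 and 159 CPM in glands labelled KO and 277, 224, 150 and 165 CPM in WT glands, and was not called (-0.47 ± 0.22, adjusted p = 0.161).

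None of the 6 members was called with TORIN1 by edgeR's test, where 5.83% of 14985 genes were called. At an unadjusted p under 0.05 there were 2 of the 6, Slc12a2 and Atp1b1, where 23% of all genes tested had one, and DESeq2 called Atp1b1. The comparison asks which transcripts depend on mTOR activity in cultured epithelium.

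Atp1b1 had 453, 571, 527 and 508 CPM with TORIN1 and 643, 624, 639 and 651 CPM with DMSO, so that every TORIN1 sample lay below every DMSO sample. Its log2 fold change was -0.31 ± 0.10 (adjusted p = 0.0909), and the adjusted p was 0.0179 with DESeq2. Slc12a2 had 1141, 2071, 1671 and 1707 CPM with TORIN1 and 2070, 2148, 2351 and 2063 CPM with DMSO, which overlap at 1 sample, at -0.39 ± 0.17 (adjusted p = 0.209). With the GC and exon length offset its value was -0.36 (adjusted p = 0.0404).

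The other 4 genes overlapped between TORIN1 and DMSO. Kcnn4 had 509, 302, 199 and 261 CPM with TORIN1 and 320, 315, 284 and 273 CPM with DMSO. Kcnma1 had 16.8, 25.3, 32.3 and 24.8 CPM with TORIN1 and 16.9, 23.5, 23.8 and 18.9 CPM with DMSO. Ano1 varied widely in both groups, at 107, 100, 38.3 and 34.6 CPM with TORIN1 and 53.4, 90.7, 76.2 and 24.2 CPM with DMSO. Slc4a4 had 20.2, 43.9, 35.2 and 40.3 CPM with TORIN1 and 29.2, 33.6, 31.8 and 30.2 CPM with DMSO. Their log2 values of 0.09, 0.25, 0.19 and 0.16 in this order had adjusted p from 0.489 to 0.866, which does not show that they did not change.

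TORIN1 A stood apart from the other TORIN1 samples, with a chi-square per gene of 97.9 to 116 against them. It was highest of its group for Kcnn4 and Ano1 and lowest for the other 4 members. Without it, Atp1b1 was called lower at -0.26 (adjusted p = 0.0134) and Slc4a4 higher at 0.35 (adjusted p = 0.0166), the Kcnn4 value turned to -0.23 (adjusted p = 0.218), and 3856 genes were called in all, against 873 with it. Acinar product genes summed to 7742 to 22618 CPM with TORIN1 and 32419 to 51220 CPM with DMSO, while epithelial markers overlapped, at 6378 to 9018 CPM with TORIN1 and 7180 to 7785 CPM with DMSO. The part of these sums in the values of the 6 genes was not tested.

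Of 49 tested genes related to the members, 5 were called higher and 4 lower with TORIN1, where 2.46% of all genes were called higher and 3.36% lower. The counts were 2 higher and 0 lower of 8, 0 and 1 of 13, 1 and 1 of 9, 2 and 1 of 9, and 0 and 1 of 10 in the order used above. Among them Ano7 rose by 3.67 ± 0.39 and Fxyd6 by 1.89 ± 0.34. Slc12a8 fell by 1.37 (SE 0.25), Cftr by 0.92 (SE 0.17) and Kcnk6, a background potassium channel gene, by 0.87 (SE 0.20). Ano7 was thus called in opposite directions in this comparison and in glands labelled KO.

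In epithelium kept in NRG1, the members split over days 2, 3 and 4. From day 2 to day 4, Slc12a2, Kcnn4 and Slc4a4 rose and Ano1 and Kcnma1 fell. All 5 were called, but 91.7% of the 5171 genes of this table were, and the sources used here do not say how those genes were selected. A call or an adjusted p in this table therefore says little about a member by itself. The median over all 5171 genes was 0.18 on the log2 scale, so each change is best read relative to that median. CPM values in this table are shares of a part of each library and cannot be set beside those of the other tables.

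Slc12a2 had 1952 and 2074 CPM at day 2, 1873 and 2410 CPM at day 3, and 3290 and 3022 CPM at day 4. The day 4 samples lay above the rest, at 0.65 ± 0.12 on the log2 scale over day 2 (adjusted p = 0.00215). Kcnn4 had 433 and 473 CPM at day 2, 403 and 551 CPM at day 3, and 797 and 762 CPM at day 4. It too rose at the last step, to 0.78 ± 0.13 over day 2 (adjusted p = 0.00189).

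Slc4a4 moved earlier, with 35.4 and 33.1 CPM at day 2, 57.9 and 45.5 CPM at day 3, and 56.4 and 50.3 CPM at day 4. It was the only member called at day 3 over day 2, at 0.59 ± 0.13 (adjusted p = 0.0137), where 49.3% of genes were called. That call ended on leaving out either day 2 sample or the day 3 sample with 57.9 CPM (adjusted p of 0.0539 to 0.0850). At day 4 over day 3, where 46.6% were called, the called members were Slc12a2 (0.56) and Kcnn4 (0.71), both higher, and Ano1 (-1.88) and Kcnma1 (-0.43), both lower. The Ano1 call at that step ended without either day 4 sample (adjusted p of 0.0766 and 0.0910), the Kcnma1 call without the day 3 sample with 44.0 CPM or the day 4 sample with 29.6 CPM (adjusted p of 0.0565 to 0.0651), and the Slc12a2 call without the day 4 sample with 3290 CPM (adjusted p = 0.0528).

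Ano1 had 163 and 172 CPM at day 2, 278 and 121 CPM at day 3, and 46.2 and 62.2 CPM at day 4. The 2 day 3 samples lay on either side of day 2, and both day 4 samples were below all others. Its day 4 to day 2 value was -1.63 ± 0.36 (adjusted p = 0.00548), and missed the threshold (adjusted p = 0.0773) without the day 4 sample with 46.2 CPM. Kcnma1 had 46.1 and 44.9 CPM at day 2, 44.0 and 40.9 CPM at day 3, and 29.6 and 33.4 CPM at day 4, at -0.53 ± 0.10 (adjusted p = 0.00309). Smgc, an acinar product gene, had 6651 and 8207 CPM at day 2 and 90131 and 89652 CPM at day 4 in the same samples, and Aqp5 491 and 516 CPM at day 2 and 910 and 891 CPM at day 4. Library sizes were scaled by TMM, with factors of 1.04 and 1.05 at day 2 and 0.952 and 0.947 at day 4. Whether the growth of a few abundant transcripts still bears on the other genes after this scaling was not tested.

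**Figure D5:**
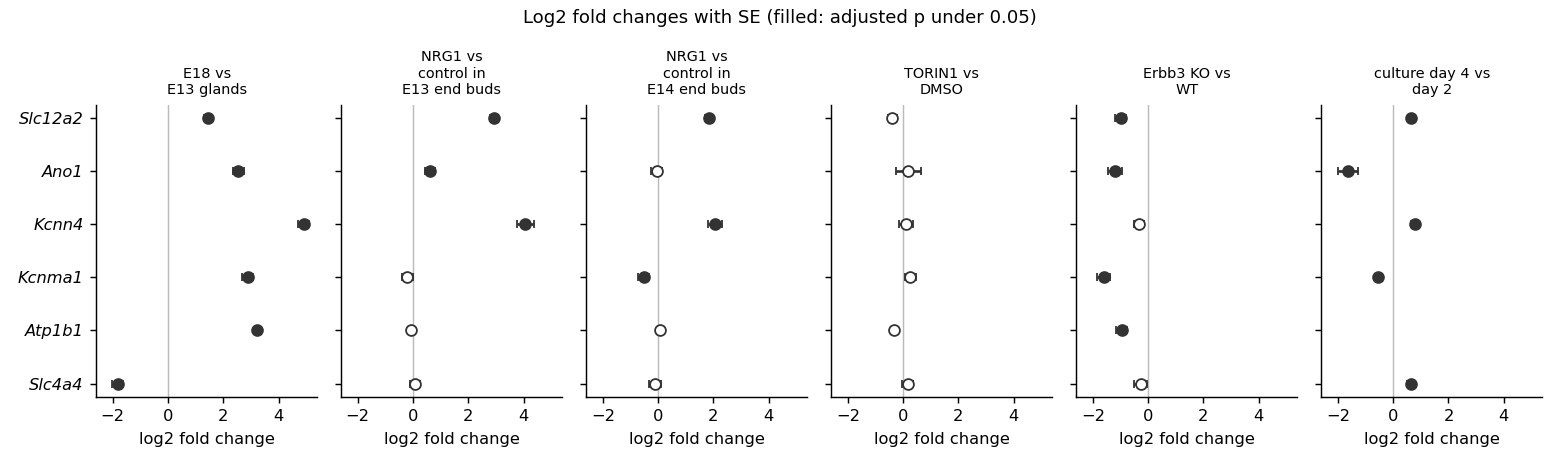
Log2 fold changes of the members in the main comparisons, with bars of 1 SE from edgeR, on a linear axis where values above 0 are higher in the group named first. Filled points were called at an adjusted p under 0.05 over all genes of the table. Kcnn4 has the widest spread of values, at 4.90 for E18 over E13 and -0.34 in glands labelled KO, and Atp1b1 was not analysed in culture.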

How the data were processed

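RNA sequencing libraries were made from total RNA with the NEBNext Ultra kit, per the labels' protocols. The authors deposited raw read counts per gene in 5 tables, made with fastp, STAR and featureCounts on mm10 per the submitters' processing notes; the sources used here give neither versions nor the strand setting. Ensembl IDs were matched to GENCODE M21 symbols (97.8% in the gland and end bud tables). Left out were 8 culture entries whose names had turned into dates (0.123% of counts).

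Counts of each table were fitted with all its groups in edgeR 4.0.16 (R 4.3.3), with TMM scaling, filterByExpr, the robust quasi-likelihood F test and Benjamini-Hochberg adjustment over all genes tested. An adjusted p under 0.05 was a call. SE is the log2 fold change divided by the square root of F. CPM used TMM-scaled library sizes, and levels between genes were divided by union exon length. Precision is limited by 2 to 4 samples a group and, for Kcnma1 and Kcnn4, by few reads.

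Alternatives were DESeq2 1.42.0, other scalings, no filter, only the groups compared, a replicate block, a GC and exon length offset (chosen after seeing the data, as was the block for culture), and leaving out each sample. The fits were also run on simulated data with 200 changed genes. That simulation held neither the samples that stood apart nor the trends with exon length, and no result here rests on it. Samples with the same letter or number correlated in their deviations by -0.37 to 0.50. Between TORIN1 and DMSO the values were 0.449 (A), 0.259 (B), -0.133 (C) and 0.501 (D), so pairing there remains possible. Letters were not taken to pair samples in the main fits, nor were the culture prefixes (-0.47 to 0.14). With the replicate block, TORIN1 calls over all genes numbered 967, against 873 without it. In the end bud table, S in a column name was taken to mean NRG1 and C control. The 6 genes, the 5 lists of related genes and the 11 marker lists were chosen with earlier results of these data known. Genes named from the lists are those called with the largest changes in each direction, and others named beside them were picked after their values were seen. Some genes that this rule would name are not reported here.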

Additional observations from a re-analysis of the deposited data

Results flagged for a closer look

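Within groups of 4 samples, 5 of 60 combinations of gene and group had 1 sample whose gap to its nearest neighbour passed Dixon's 95% limit, which chance passes in about 1 of 20 groups. Ano1 had 78.9 CPM in E18 D, far below the other E18 glands, and Kcnn4 had 1020 CPM in the same sample, far above them. E18 D also had the lowest mesenchymal and highest epithelial marker sums of its stage. Slc12a2 had 312 CPM in E16 A, below the other E16 glands. Kcnma1 had 18.9 CPM in E17 A, above the other E17 glands. Slc4a4 had 8.90 CPM in KO 2, above the other glands labelled KO.

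The response to NRG1 differed between end buds titled E14 and E13 for Slc12a2, by -1.07 on the log2 scale (interaction term, edgeR, adjusted p = 0.00500), and for Kcnn4, by -1.998 (adjusted p = 0.0331). The Kcnn4 call ended without the low-count filter and on leaving out any of several single samples, as given above. Its E13 controls rest on 14 to 29 reads a sample, and E14 has 2 controls.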

How the results depend on the processing

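Of the log2 fold changes recomputed with all samples, 637 kept direction and call, 18 lost the call, 13 gained one and 10 changed sign. With 1 sample left out, the numbers were 529, 48, 7 and 22. Counts of called members moved to 2 at E17 over E16 with RLE size factors, library totals, DESeq2 and only the groups compared; to 2 (library totals) and 1 (only the groups compared) at E18 over E17; to 1 for the difference of NRG1 responses with no low-count filter; to 1 with TORIN1 under DESeq2, the offset, and the replicate block with the offset; and to 2 for KO with the offset. With 1 sample left out, they ran from 1 to 3 for the difference of NRG1 responses, 0 to 2 for TORIN1, 0 to 4 for KO, 0 to 2 for day 3 over day 2 and 1 to 4 for day 4 over day 3. With the replicate block, 3 members were called at E18 over E17 and 2 with NRG1 at E14, and no other count of called members changed; with the offset added, 6 were called at E15 over E14 and 3 for KO. For culture, where the column prefix NRG1 or NRG2 was taken as a replicate number after seeing the data, the replicate block left 1, 4 and 5 members called at day 3 over day 2, day 4 over day 3 and day 4 over day 2, with no call lost or gained. Over all genes it called 2039, 1904 and 4613, and 2779, 2751 and 4817 with the prefixes exchanged at day 3.

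With the offset, signs turned for Kcnma1 at E15 over E14 (0.53, or 0.52 with the block), Atp1b1 with NRG1 at E14 (-0.038, or -0.027 with the block), Slc4a4 for KO (0.16, or 0.18 with the block) and Kcnn4 at day 3 over day 2 (-0.018), and with offset and block for Slc4a4 with NRG1 at E14 (0.029). With library totals they turned for Slc12a2 at E17 over E16 (-0.067) and Slc4a4 at day 4 over day 3 (-0.047). With 1 sample left out, signs turned for Slc12a2 at E17 over E16 (-0.019 to 0.11), Ano1 (-0.19 to 0.16) and Slc4a4 (-0.27 to 0.080) at E18 over E17, Slc4a4 with NRG1 at E13 (-0.055 to 0.14), Ano1 (-0.41 to 0.43), Atp1b1 (-0.030 to 0.11) and Slc4a4 (-0.42 to 0.29) with NRG1 at E14, Slc4a4 in the difference of responses (-0.48 to 0.22), Ano1 (-0.087 to 0.44) and Kcnn4 (-0.23 to 0.26) with TORIN1, Slc12a2 (-0.10 to 0.26), Ano1 (-0.47 to 0.73) and Kcnn4 (-0.17 to 0.29) at day 3 over day 2 and Slc4a4 at day 4 over day 3 (-0.12 to 0.22). None of these was called in the full data. The causes were not tested.

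With library totals the median log2 change of all genes was -0.15 for KO, against -0.04 with TMM, and 0.05 for day 4 over day 2, against 0.18. Over all genes, KO calls numbered 1054, against 133 with the offset, 263 with offset and replicate block, 2637 with DESeq2 and 2121 with no filter, and TORIN1 calls 873, against 1807 with DESeq2 and 1715 with the offset.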
